A study of Mus musculus with 6 samples.

Results

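The genes described here are 4 keratins of simple epithelia (Krt7, Krt8, Krt18 and Krt19), 4 claudins (Cldn3, Cldn4, Cldn6 and Cldn7) and the tight junction gene Marveld3. They were taken by gene symbol from the deposited count table, which lists 55487 genes. All 9 were found, and all 9 were among the 17315 genes that passed the filter on low counts. The libraries come from mouse embryonic stem cells of 2 genotypes, Ts1Cje and wild-type, with 3 lots each. Ts1Cje is a Down syndrome mouse model with an additional copy of distal chromosome 16, on which none of the 9 genes lies, and it is also known to lack a few genes near the end of chromosome 12. Cells of both genotypes had been kept as stem cells with LIF and serum replacement. For 4 days they were then given VEGF, activin A, BMP-4 and FGF2, to make primitive macrophage progenitors. The labels name no strain, sex or passage. The design text speaks of different cells of each genotype but does not say whether the lots are separate lines or cultures. P-values therefore measure the spread between these libraries, which may be technical, and genotype cannot be told apart from the stem cell lines that carry it.

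Keratins are the intermediate filaments of epithelial cells. Each filament pairs a type II keratin with a type I keratin, and in simple, single-layered epithelia the pairing is mainly of Krt8 with Krt18, to which Krt7 (type II) and Krt19 (type I) are added in some tissues. Claudins are membrane proteins whose extracellular loops form the strands of tight junctions and set which ions pass between cells. Marveld3, like its relatives occludin and tricellulin (Marveld2), is a tight junction protein with a MARVEL domain. In the early mouse embryo, Krt8 and Krt18 mark trophoblast and endoderm, and Cldn6 is an early epithelial claudin of stem cells and their first derivatives. Loss of such genes accompanies the passage of epiblast cells through the primitive streak into mesoderm, under repressors of the SNAI and ZEB families that bind E-boxes, short sites with the letters CACCTG.

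Promoter sequences are shown because the genes for those repressors also differed between the genotypes, as given further on. The set of RefSeq promoters used here (GRCm38.p6, the mm10 assembly) had an entry for 7 of the 9 genes, Krt7, Krt8, Krt18, Cldn3, Cldn4, Cldn6 and Cldn7. The 250 bases before each start site were searched on both strands, where CACCTG reads as CAGGTG on the opposite strand. A match was present for 6 of the 7 genes, all but Cldn3. Counted by window and not by gene, 17.2% of 32851 promoter windows of the same length held one. Cldn7 has 2 windows, and only the downstream one held a match, so the 2 figures are not counted alike. The matches of 5 genes, with 12 bases on either side where the window allows it, are printed 5′ to 3′ along the gene, with the E-box in capitals. Some lie in 5′ untranslated regions of the GENCODE annotation, so only these short stretches are printed.
Krt7 (chr15:101412347-101412376, plus strand): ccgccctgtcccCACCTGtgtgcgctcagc
Krt18 (chr15:102027990-102028019, plus strand): aggggctaacacCACCTGctatcctttgtg
Cldn4 (chr5:134946935-134946960, minus strand): ctttaactgcagCACCTGtggccgcc
Cldn6 (chr17:23679260-23679289, plus strand): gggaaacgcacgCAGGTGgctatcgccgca
Cldn7 (chr11:69965312-69965341, plus strand): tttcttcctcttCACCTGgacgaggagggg
Cldn7 (chr11:69965352-69965381, plus strand): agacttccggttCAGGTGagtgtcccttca
The box began 44 bases before the RefSeq start site in Krt7, 214 in Krt18, 14 in Cldn4 and 93 in Cldn6. Cldn7 has 2 start sites in the table, and both of its boxes, 97 and 57 bases before, belong to the downstream one. RefSeq and GENCODE starts differ. By the GENCODE gene coordinates given further on, only the printed boxes of Krt18 and Cldn4 lie before the gene. Those of Krt7, Cldn6 and Cldn7 lie inside it, and those of Cldn6 and Cldn7 are in annotated untranslated regions.

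Wider stretches are shown for Krt18, which rose, and for Cldn4, which did not pass the test. Capitals mark matches to the E-box, to the GC box (GGGCGG, on the opposite strand CCGCCC) and to the AP-1 site (TGACTCA). The Krt18 stretch ends where its annotated 5′ untranslated region begins.
Krt18 (chr15:102027966-102028179, plus strand): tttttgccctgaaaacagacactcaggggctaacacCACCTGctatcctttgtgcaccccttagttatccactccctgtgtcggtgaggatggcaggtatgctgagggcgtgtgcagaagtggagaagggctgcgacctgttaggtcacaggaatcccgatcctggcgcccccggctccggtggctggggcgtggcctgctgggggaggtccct
Cldn4 (chr5:134946935-134947184, minus strand): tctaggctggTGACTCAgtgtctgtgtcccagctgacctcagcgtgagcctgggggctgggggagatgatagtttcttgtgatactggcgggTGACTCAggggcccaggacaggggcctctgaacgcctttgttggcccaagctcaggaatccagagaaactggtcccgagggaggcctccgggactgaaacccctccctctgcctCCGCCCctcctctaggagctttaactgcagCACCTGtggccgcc
Cldn4 was the only one of the 7 genes with an AP-1 match, of which it had 2, and 4.46% of all windows held one. A GC box was found for Krt7, Cldn3, Cldn4, Cldn6 and Cldn7 and in 32.7% of all windows. The Grainyhead palindrome AACCGGTT (0.116% of windows) and the letters TATAAA (12.4%) were in none of the members' windows. Windows of the members held 51.2 to 66.0% G and C, against a median of 52.4% over all windows. These matches are descriptions of letters and not evidence of binding.

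Of the 9 genes, 7 rose in Ts1Cje, 0 fell (0 also at an unadjusted p below 0.05 and with DESeq2), and Krt19 and Cldn4 did not pass (edgeR's quasi-likelihood test, adjusted p below 0.05 over all 17315 genes). The background was high, since 43.8% of all tested genes were called, 23.3% as higher and 20.5% as lower in Ts1Cje. The same 7 genes had groups that did not overlap, with every Ts1Cje library above every wild-type one, which was the case for 28.8% of all tested genes, and a further 26.4% were separated in the other direction. The median log2 fold change of the 9 was 1.68, against −0.01 over all genes tested. Total counts per library ran from 16577065 to 19010856. In bulk RNA, fewer cells of a type and less RNA per cell cannot be told apart.

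**Figure D1:**
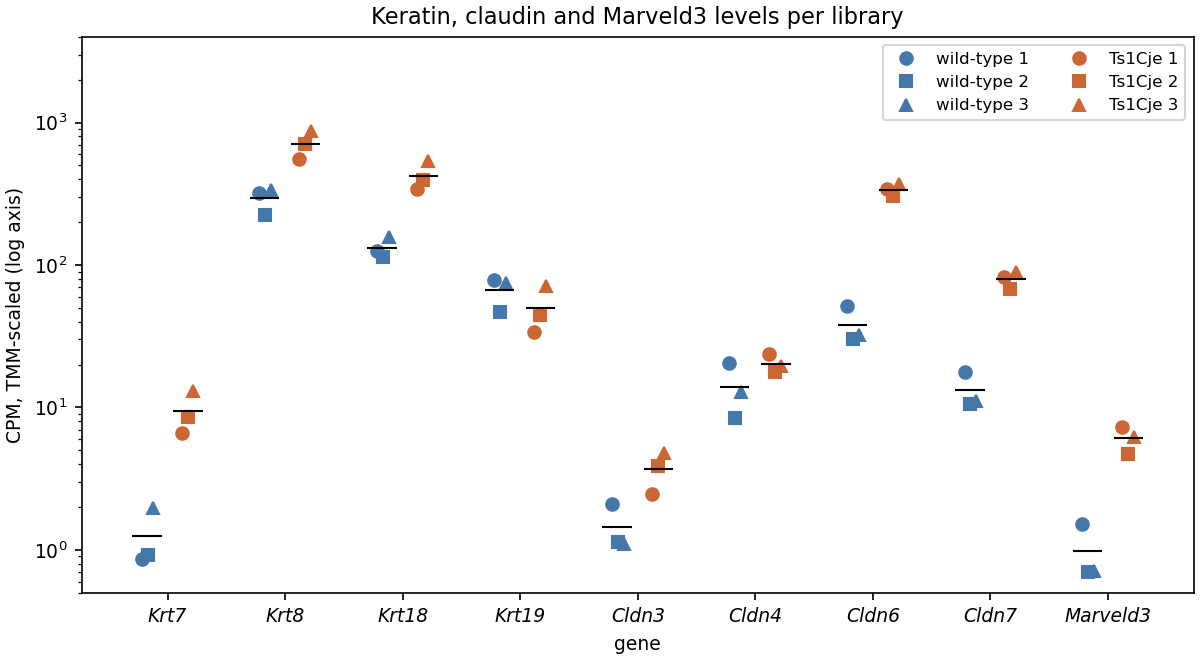
CPM after TMM scaling on a log axis for each of the 9 genes, with 1 point per library (blue wild-type, orange Ts1Cje, shape by lot) and a line at each group mean. The groups are separate for 7 genes and overlap for Krt19 and Cldn4, and wild-type replicate 1 is the highest wild-type library for all 4 claudins, Marveld3 and Krt19.

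Krt8, the main type II keratin of simple epithelia, had the highest level of the 9 genes in both genotypes. Its levels were 318, 225 and 336 CPM in the wild-type libraries and 553, 704 and 865 CPM in the Ts1Cje libraries. The groups did not overlap, and Ts1Cje replicate 3 was the highest library. The change was 2.41-fold (log2 fold change 1.27 ± 0.22 SE, n = 3 per group, edgeR adjusted p = 0.00529). Krt8 (ENSMUSG00000049382, chromosome 15, 101996698 to 102004482, minus strand) shares 271 bp at its 5′ end with Gm36026, a long noncoding RNA gene on the opposite strand. The counts of Gm36026 were 9.98 to 10.65% of those of Krt8 in every library, and its log2 fold change was 1.27 ± 0.21. How the counting treated strand is not known from the sources, so reads in the shared stretch cannot be assigned to one gene with certainty. The processed pseudogene Krt8-ps held 6 to 24 counts per library, so few reads were counted there.

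Krt18, the type I partner of Krt8, starts 23.7 kb from it on the other strand (ENSMUSG00000023043, chromosome 15, 102028180 to 102032027). The wild-type libraries had 126, 113 and 158 CPM and the Ts1Cje libraries 340, 397 and 537 CPM. All Ts1Cje libraries were again higher, by 3.21-fold (log2 fold change 1.68 ± 0.21 SE, edgeR adjusted p = 0.00102). Among the Ts1Cje libraries, replicate 1 was the lowest and replicate 3 the highest for Krt18, as for Krt8.

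Krt7, a type II keratin of ducts and trophoblast, was the rarest keratin of the 4 (ENSMUSG00000023039, chromosome 15, 101411043 to 101430313, plus strand). Its raw counts were 16, 17 and 36 in wild-type and 121, 143 and 248 in Ts1Cje. The lowest Ts1Cje library thus had more than the highest wild-type one. The mean level was 1.25 ± 0.62 CPM against 9.39 ± 3.28 CPM (SD over 3 libraries each). This was a log2 fold change of 2.90 ± 0.37 (edgeR adjusted p = 0.000244), and 3.26% of all tested genes had a larger change in either direction. Krt7 lies 566 kb from Krt8 in the same keratin cluster. The antisense gene Gm671, which overlaps it by 1269 bp, held at most 6 counts per library.

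Krt19, a type I keratin without the tail domain that other keratins have, was the exception among the keratins (ENSMUSG00000020911, chromosome 11, 100140810 to 100148665, minus strand). Its levels were 78.4, 46.5 and 74.6 CPM in wild-type and 34.0, 44.9 and 70.8 CPM in Ts1Cje. The ranges overlapped, and Ts1Cje replicate 3 came close to wild-type replicates 1 and 3. The log2 fold change was −0.41 ± 0.33 (adjusted p = 0.373), and over the 13 alternative fits it stayed negative, with adjusted p-values from 0.0695 to 0.674.

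**Figure D2:**
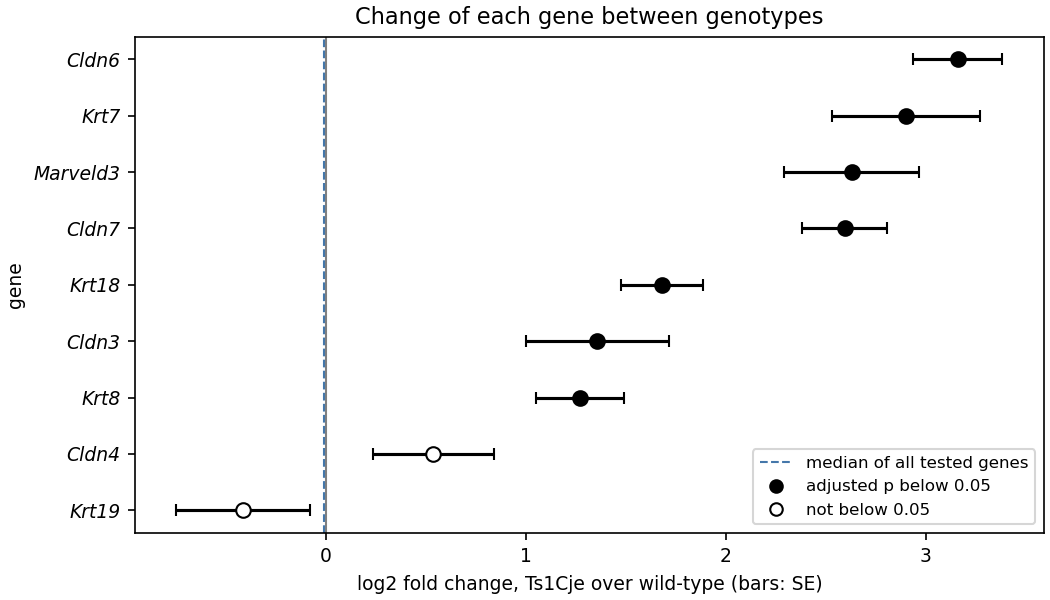
Log2 fold change of Ts1Cje over wild-type for each gene with its SE; filled points have an adjusted p below 0.05, and the dashed line is the median over all tested genes. Values run from −0.41 for Krt19 to 3.16 for Cldn6.

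The make-up of the keratins was also compared between the genotypes. On the TPM scale, which is per length and allows genes to be compared, the summed level of the 4 keratins, computed after the values were seen, was 960, 705 and 1011 TPM in wild-type and 1718, 2166 and 2757 TPM in Ts1Cje (exact permutation test over 6 libraries, p = 0.1; 3 against 3 libraries cannot give a smaller one). Krt19 made up 32.5, 24.2 and 26.7% of the Krt18 plus Krt19 TPM in wild-type and 7.20, 8.05 and 9.27% in Ts1Cje. The groups were far apart in this share, which was chosen after the values were seen (27.8 ± 4.3% against 8.17 ± 1.04%, SD over 3 libraries each; p = 0.1 in an exact permutation test).

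The ratio of Krt8 to Krt18 did not overlap between the groups of libraries. As a log2 TPM ratio it was 0.89, 0.55 and 0.64 in wild-type and 0.25, 0.38 and 0.24 in Ts1Cje, so that Krt18 stood closer to Krt8 in every Ts1Cje library (difference −0.40; exact permutation test, p = 0.1). With Krt7 and Krt19 added, the ratio of type II to type I keratins was 0.22 ± 0.09 in wild-type and 0.17 ± 0.08 in Ts1Cje (log2, SD, n = 3 each). These ranges overlapped (exact permutation test, p = 0.6). Filaments need both types, but transcript ratios do not measure protein.

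**Figure D3:**
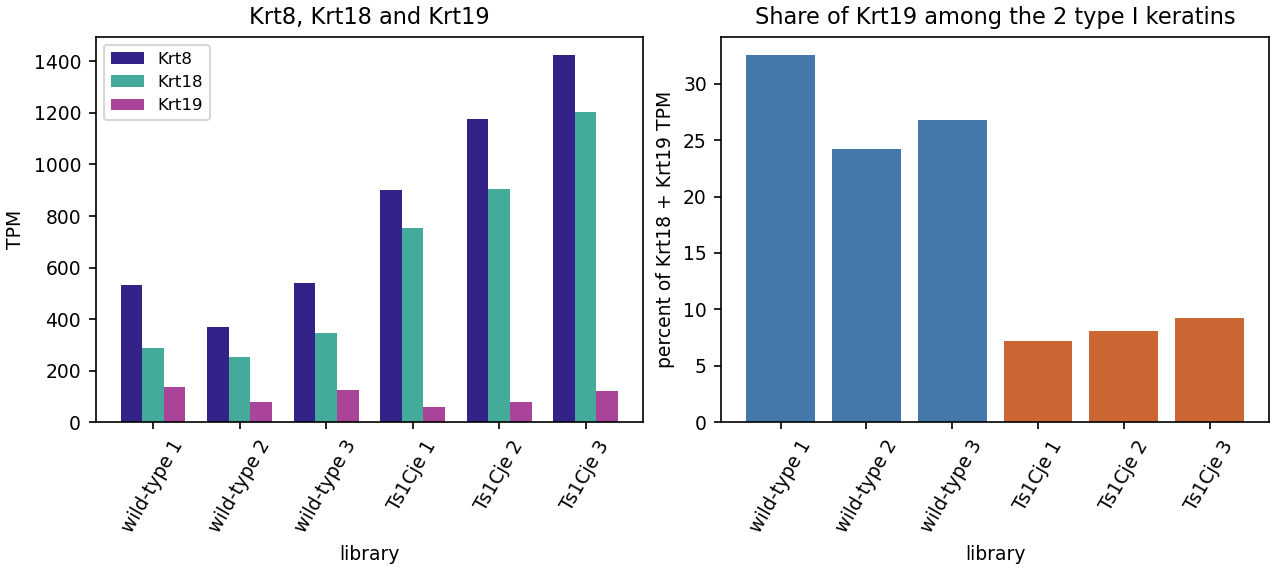
Left, TPM of Krt8, Krt18 and Krt19 in each library; right, Krt19 as a percent of Krt18 plus Krt19 TPM. Krt19 holds 24.2 to 32.5% in the wild-type libraries and 7.20 to 9.27% in the Ts1Cje libraries.

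Among the claudins, Cldn6 had the largest change of all 9 genes (ENSMUSG00000023906, chromosome 17, 23679249 to 23682446, plus strand). Its levels were 51.2, 30.1 and 32.1 CPM in wild-type and 341, 306 and 368 CPM in Ts1Cje. The lowest Ts1Cje library lay well above the highest wild-type library, and the Ts1Cje libraries lay close together. The change was 8.95-fold (log2 fold change 3.16 ± 0.22 SE, adjusted p = 9.72e-05), and 2.41% of tested genes changed more in either direction. Cldn9, another claudin gene 137 bp beyond its end, had 0 to 20 counts per library and was not tested.

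Cldn7, a claudin of the lateral membrane as well as the tight junction, followed the same pattern (ENSMUSG00000018569, chromosome 11, 69964779 to 69967885, plus strand). Its counts were 330, 197 and 201 in wild-type and 1508, 1132 and 1694 in Ts1Cje. Wild-type replicate 1 was the highest of its group, yet below every Ts1Cje library. The log2 fold change was 2.60 ± 0.21 (6.04-fold, adjusted p = 5.79e-05), the smallest adjusted p of the 9 genes.

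Cldn3 and Cldn4, barrier-forming claudins and receptors for a bacterial enterotoxin, are neighbours on chromosome 5, 39.3 kb apart. Cldn3 (ENSMUSG00000070473, 134986214 to 134987472, plus strand) was rare, with 39, 21 and 20 counts in wild-type and 45, 65 and 92 in Ts1Cje. In CPM the groups were separate, but wild-type replicate 1 (2.11) and Ts1Cje replicate 1 (2.47) nearly met. The log2 fold change was 1.36 ± 0.36 (adjusted p = 0.0114), and the call was lost without wild-type replicate 2 (adjusted p = 0.0507) or Ts1Cje replicate 3 (0.0553).

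Cldn4 (ENSMUSG00000047501, 134945119 to 134946934, minus strand) had 20.6, 8.39 and 12.8 CPM in wild-type and 23.6, 17.8 and 19.4 CPM in Ts1Cje. Wild-type replicate 1 lay among the Ts1Cje libraries, while the other wild-type libraries lay below them. The log2 fold change was 0.54 ± 0.30 (adjusted p = 0.192). Without wild-type replicate 1 it was 0.93 and passed (adjusted p = 0.00274), so 8 of the 9 genes rose in that fit. Cldn4 also passed in edgeR with the lot number as a block (0.60, adjusted p = 0.0148) and with no filter on low counts (adjusted p = 0.00435). In the remaining alternative fits it did not pass.

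Marveld3, the tight junction member that is no claudin, also rose (ENSMUSG00000001672, chromosome 8, 109947914 to 109962203, minus strand). Its counts were 28, 13 and 13 in wild-type and 133, 79 and 119 in Ts1Cje. Every Ts1Cje library had more than any wild-type library, and the log2 fold change was 2.63 ± 0.34 (6.19-fold, adjusted p = 0.00019). Marveld3 lies on distal chromosome 8, where neighbouring genes also tended upward. Of 23 other tested genes that start within 1 Mb of it, 13 rose and 0 fell, with a median log2 fold change of 0.35. The change of Marveld3 was larger than that median, and the part of its location in the result was not tested. Around the other 8 genes the median of such neighbours lay between −0.14 and 0.09, with calls in both directions. Within 0.5 Mb the Krt7 neighbours had a median of 0.55 (10 genes, of which 2 rose and 4 fell). That was above the 0.44 of the Marveld3 neighbours (15 genes, of which 9 rose and 0 fell). Within 3 Mb of Marveld3 the median was 0.28 (58 genes, of which 29 rose and 3 fell).

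The 4 claudins together reached 171, 91.7 and 101 TPM in wild-type and 815, 737 and 884 TPM in Ts1Cje. The groups did not overlap (121 ± 43.1 against 812 ± 73.4 TPM, SD, n = 3 each; exact permutation test, p = 0.1). Cldn6 made up 44.6, 38.9 and 37.3% of all claudin TPM in wild-type and 73.6, 73.4 and 73.8% in Ts1Cje. The share of Cldn4 was lower in every Ts1Cje library (13.8 ± 3.4% against 4.19 ± 0.59%), and so was that of Cldn3 (2.09 ± 0.39% against 1.11 ± 0.33%). The share of Cldn7 was 12.4 ± 1.2% in wild-type and 15.3 ± 0.8% in Ts1Cje. Each of these 4 shares gave p = 0.1 in an exact permutation test, also after adjustment over the 4. Cldn12, a claudin without the usual scaffold-binding tail, was the other common claudin, and its means of 59.4 ± 4.4 and 54.2 ± 4.6 CPM (wild-type, then Ts1Cje) did not pass the test (log2 fold change −0.13 ± 0.09, adjusted p = 0.277). Its share of all claudin TPM, computed after the values were seen, was 27.0 ± 6.8% and 4.84 ± 0.74%.

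**Figure D4:**
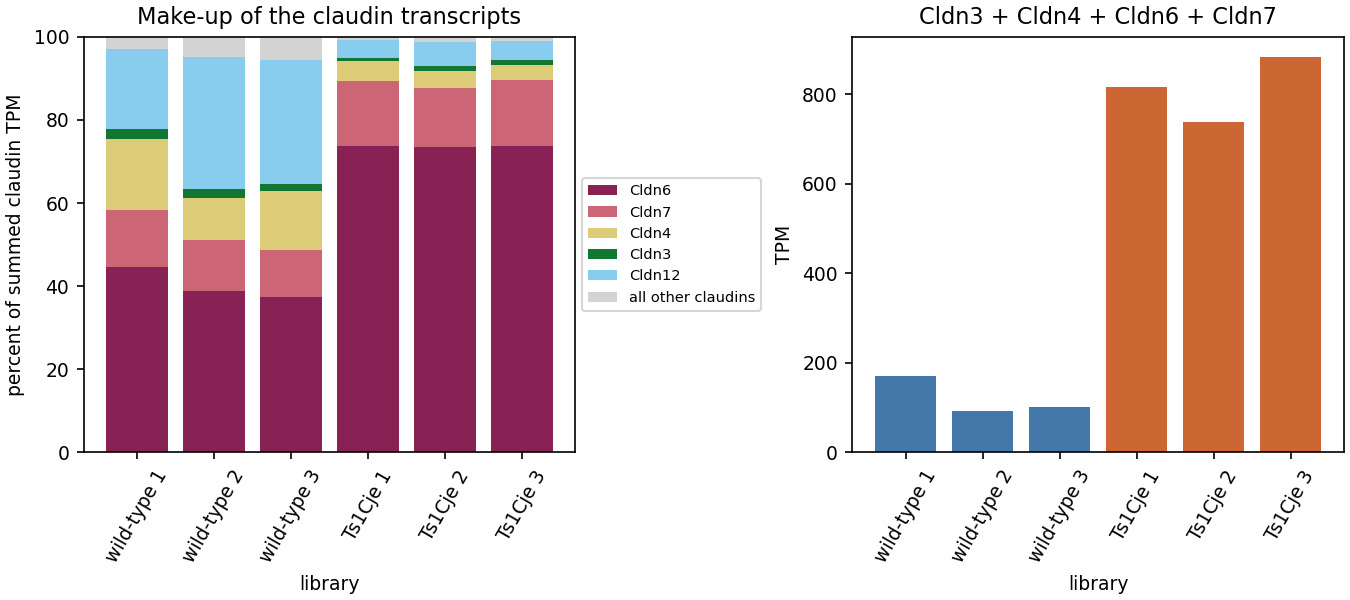
Left, percent of the summed TPM of all claudin genes held by Cldn6, Cldn7, Cldn4, Cldn3, Cldn12 and all others in each library; right, summed TPM of the 4 member claudins. Cldn6 holds 37.3 to 44.6% in wild-type and 73.4 to 73.8% in Ts1Cje.

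By mean TPM, the order in wild-type was Krt8 (481), Krt18 (296), Krt19 (115), Cldn6 (70.8), Cldn4 (24.8), Cldn7 (21.8), Cldn3 (3.71), Marveld3 (0.962) and Krt7 (0.567). The library ranges of Krt19 and Cldn6 overlapped, as did those of Cldn4 and Cldn7 and of Marveld3 and Krt7. In Ts1Cje the order was Krt8 (1167), Krt18 (955), Cldn6 (634), Cldn7 (132), Krt19 (86.9), Cldn4 (36.0), Cldn3 (9.56), Marveld3 (5.97) and Krt7 (4.30). Here the ranges overlapped for Krt8 and Krt18, for Cldn7 and Krt19, for Cldn3 and Marveld3 and for Marveld3 and Krt7. Cldn6 and Cldn7 thus stood above Krt19 by mean in Ts1Cje and below it in wild-type.

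Within a genotype, the libraries varied partly alike and partly differently for keratins and claudins. Wild-type replicate 1 was the highest wild-type library for Cldn3, Cldn4, Cldn6, Cldn7 and Marveld3, with 51.2 CPM of Cldn6 against 30.1 and 32.1. For Krt7, Krt8 and Krt18 the highest was wild-type replicate 3, but Krt19 was highest in wild-type replicate 1, as the claudins were. Wild-type replicate 2 was the lowest wild-type library for Krt8, Krt18, Krt19, Cldn4, Cldn6 and Cldn7. In Ts1Cje, replicate 1 was the lowest for all 4 keratins and for Cldn3, but the highest for Cldn4 and Marveld3. Ts1Cje replicate 3 was the highest for all 4 keratins and for Cldn3, Cldn6 and Cldn7. Without wild-type replicate 1, the log2 fold change of Cldn6 was 3.44, that of Cldn7 2.87 and that of Marveld3 3.09, while Krt18 stood at 1.64 and Krt8 at 1.33. Cell type markers also set wild-type replicate 1 apart. All 7 epiblast markers were highest there among the wild-type libraries (summed level 449 TPM against 215 and 207), as were 7 of 8 visceral endoderm markers (138 against 111 and 88.1 TPM). Of the 8 endothelium markers 7 were lowest there (180 against 211 and 232 TPM), and of the 8 mesenchyme markers 5, although the summed level of that list was highest there (322 against 307 and 285 TPM). The 7 include Cldn5, which had 2 counts in both wild-type replicates 1 and 2, so its rank rests on library scaling alone. The part of these differences in the claudin levels of that library was not tested.

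The 5 genes whose pattern over the 6 libraries was nearest to the mean pattern of the 9 genes were found by the root mean square difference of centred log2 CPM. Among them were Cgn, which encodes the tight junction plaque protein cingulin (0.03), the antisense transcript 1110046J04Rik (0.09), the zinc transporter gene Slc39a2 (0.11) and Sdc4, a heparan sulfate proteoglycan of the cell surface (0.12). Cgn went from 26.4 ± 5.8 to 86.2 ± 14.1 CPM (SD, n = 3 each). With 2 groups this measure mostly follows the difference between genotypes, and it is given as a description.

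Genes of the wider junction and filament machinery were counted from fixed lists (all adjusted p-values from edgeR's quasi-likelihood test). Of 23 tested tight junction partners, 14 rose and 4 fell, with a median log2 fold change of 0.51. Ocln, which encodes occludin, rose from 6.43 ± 0.38 CPM in wild-type to 45.6 ± 7.3 CPM, which is 2.82 ± 0.14 on the log2 scale (adjusted p = 1.16e-06). The polarity gene Crb3 (2.75 ± 0.18), the scaffold gene Tjp3 (2.53 ± 0.17), the adhesion gene F11r (3.04-fold) and Marveld2 (2.19 ± 0.25) rose too. Tjp1, which encodes the scaffold ZO-1, averaged 285 ± 42.9 CPM in wild-type libraries against 316 ± 13.2 CPM and did not pass (0.15 ± 0.10, adjusted p = 0.262). The members that fell were Jam3, Cgnl1, Magi1 and Magi3, named after their values were seen.

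Desmosomes tie keratin filaments to the cell border, and 9 of 14 tested genes of this list rose and 1 fell (median 0.78). The cadherin gene Dsg2 (1.14 ± 0.11), the plakoglobin gene Jup (1.46 ± 0.13) and the plakophilin gene Pkp3 (2.30 ± 0.26) rose. Dst, a linker of filaments, fell by 0.77 on the log2 scale (SE 0.09). Dsp, which encodes desmoplakin, the protein that binds keratins, averaged 266 ± 19.1 CPM in wild-type libraries against 296 ± 20.6 CPM and did not pass (adjusted p = 0.116). In the list of adherens junction and epithelial surface genes, 12 of 18 rose and 3 fell (median 0.54). Cdh1, which encodes E-cadherin, rose from 104 ± 51.9 to 658 ± 46.7 CPM (2.65 ± 0.37, adjusted p = 0.0034) and Epcam from 37.1 ± 16.7 to 215 ± 27.5 CPM (2.53 ± 0.33). Cdh1 lies on chromosome 8 (from 106603351), as Marveld3 does, and the part of its location was not tested. The membrane serine proteases Prss8 (2.32 ± 0.12) and St14 (2.35 ± 0.17) rose along with the genes for their inhibitors, Spint1 (1.71 ± 0.11) and Spint2 (2.40 ± 0.10). Like Cldn6, Cdh1 and Epcam were highest in replicate 1 among the wild-type libraries.

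Regulators of epithelial genes went in opposite directions. Of 14 tested activators and related factors, 10 rose and 0 fell (median 1.97; at an unadjusted p below 0.05, 1 fell in edgeR, and 0 fell in DESeq2). Ovol2, a repressor of mesenchymal genes, rose from 0.707 ± 0.332 to 9.38 ± 2.01 CPM (3.72 ± 0.34, adjusted p = 2.56e-05) and Grhl2, a Grainyhead factor that binds claudin and cadherin genes, from 5.54 ± 3.14 to 22.5 ± 3.7 CPM (2.02 ± 0.36). Elf3 (2.49 ± 0.15) and the splicing factor genes Esrp1 (2.91 ± 0.38) and Esrp2 (1.81 ± 0.20) rose. Esrp2 also lies on chromosome 8 (from 106130319), and the part of its location was not tested.

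All 6 tested repressors, Snai1, Snai2, Zeb1, Zeb2, Twist1 and Twist2, fell, with a median log2 fold change of −2.44. Zeb1 went from 40.8 ± 9.8 CPM down to 6.56 ± 2.15 CPM (−2.64 ± 0.26, adjusted p = 0.000145) and Zeb2 from 60.2 ± 2.2 to 19.3 ± 6.4 CPM (−1.65 ± 0.21). Snai2 had 271 counts over the wild-type libraries and 13 over the Ts1Cje libraries (−4.31 ± 0.64). Snai1, at 88.5 ± 22.7 CPM against 39.9 ± 11.8 CPM in Ts1Cje, changed least (−1.15 ± 0.26, adjusted p = 0.0143). It no longer passed when Ts1Cje replicate 1 was left out (adjusted p = 0.0714). Whether these factors act on the E-boxes printed above was not tested.

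**Figure D5:**
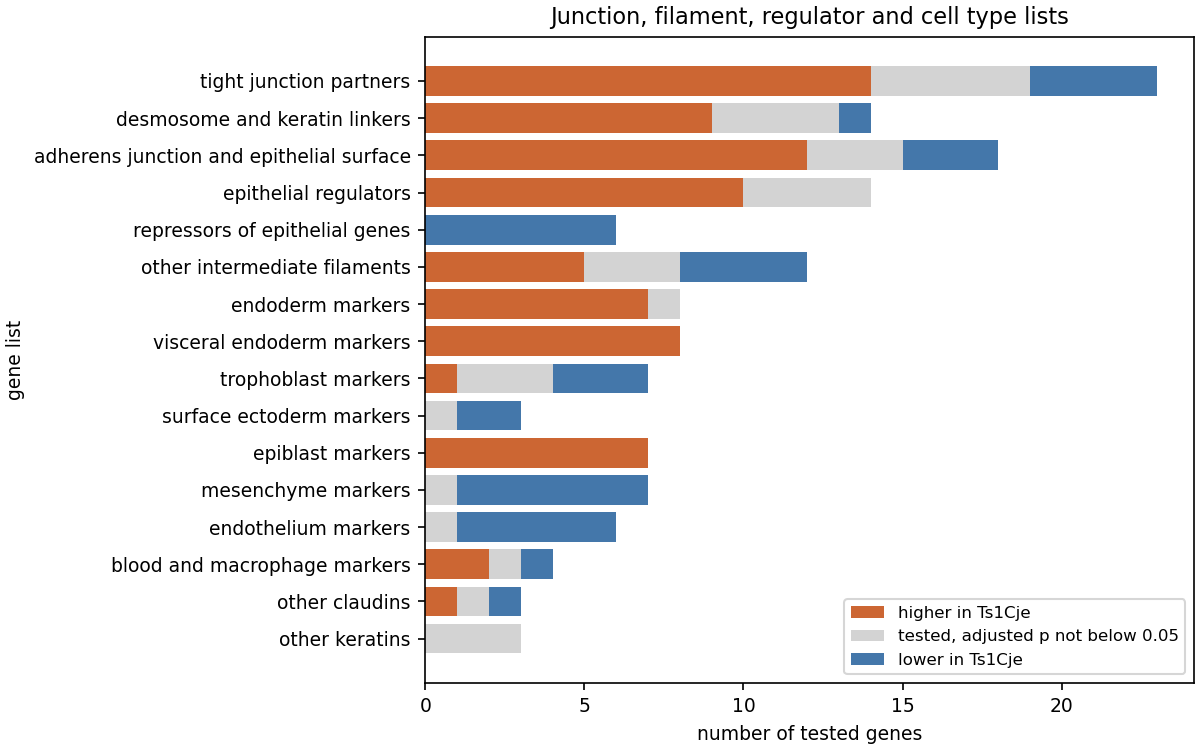
Number of tested genes in each list that were higher in Ts1Cje (orange), lower (blue) or not past an adjusted p of 0.05 (grey). All 6 repressors are lower, and 10 of 14 epithelial regulators are higher.

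Most other keratins and claudins had too few counts to be tested. Of 49 other protein-coding keratin genes in the table, 3 were tested (Krt10, Krt80 and Krt222) and 0 passed by edgeR's quasi-likelihood test, with 1 higher and 0 lower at an unadjusted p below 0.05. DESeq2 called 1 of this list as higher. Among the basal keratins of layered epithelium, Krt5 had 0 counts in all libraries, Krt14 at most 2 and Krt15 at most 14, and none of these 3 was tested. Of 28 other claudins 3 were tested, and Cldn15, a claudin of gut epithelium, rose (log2 fold change 2.55 ± 0.64, adjusted p = 0.00936) and Cldn34c1 fell (−1.09 ± 0.33, adjusted p = 0.0232). Cldn15 had 8, 1 and 1 counts in wild-type and 19, 21 and 19 in Ts1Cje, and without wild-type replicate 1 its log2 fold change was 4.16. The Cldn34c1 call did not survive leaving out replicate 2 or replicate 3 of either genotype (adjusted p = 0.0631 to 0.0727). Cldn5, the claudin of endothelium, had at most 9 counts per library and was not tested.

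Among other intermediate filaments, 5 of 12 rose and 4 fell. Vim, which encodes vimentin, the filament of mesenchymal cells, fell from 501 ± 89.7 CPM in wild-type to 70.7 ± 16.1 CPM, which is −2.83 ± 0.21 on the log2 scale (adjusted p = 0.00011), and Des, the muscle filament gene, fell as well (−1.98 ± 0.31). Lmna, which encodes the nuclear lamins A and C, rose (1.67 ± 0.15), as did Nefh (1.58 ± 0.37), a neurofilament gene.

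Markers of cell types that use these keratins and claudins moved too. All 8 visceral endoderm markers rose (summed level 88.1 to 138 TPM in wild-type and 367 to 685 in Ts1Cje), as did 7 of 8 endoderm markers (163 to 196 against 598 to 935 TPM) and all 7 epiblast markers (207 to 449 against 1482 to 2112 TPM). Sox17, an endoderm factor, rose by 3.18 ± 0.12 on the log2 scale, Hnf4a by 2.83 ± 0.20 and Otx2 by 3.75 ± 0.29. Trophoblast markers did not share this direction. Of 7 tested, 3 fell (Cdx2, Hand1 and Plac1) and 1, Ascl2, rose. The summed level of the list was 1085 to 1501 TPM in wild-type and 181 to 289 TPM in Ts1Cje. Most of the wild-type sum came from Hand1 (mean 945 TPM, and 28.1 in Ts1Cje) and Cdx2 (295 and 7.48 TPM). Eomes averaged 78.3 TPM in wild-type and 180 in Ts1Cje. Every Ts1Cje library was higher for Eomes, but it did not pass (edgeR adjusted p = 0.0864). Prl3d1 had 0 counts throughout, Tpbpa 1 count and Elf5 at most 4 per library. Cdx2 and Hand1 also mark posterior or extraembryonic mesoderm, and Cdx2 fell by 5.33 on the log2 scale (SE 0.40).

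Surface ectoderm markers were scarce, with a summed level of 12.7 to 13.4 TPM in wild-type and 2.34 to 4.25 in Ts1Cje; 3 of 8 were tested, 2 of them fell (Wnt6 and Dlx3), and Trp63 had at most 5 counts per library. Of 7 tested mesenchyme markers 6 fell and 0 rose (285 to 322 against 143 to 201 TPM), and of 6 tested endothelium markers 5 fell and 0 rose (180 to 232 against 22.8 to 47.8 TPM, with Emcn at 0). Of the 10 blood and macrophage markers 4 were tested, 2 rose (Kit and Gata1) and 1 fell (Tal1). Their list summed to 74.6 to 101 TPM in wild-type and 69.7 to 85.9 in Ts1Cje. These near sums held opposite changes. Tal1 averaged 59.6 TPM in wild-type and 5.16 in Ts1Cje, and Kit 21.4 and 60.1. Ptprc, which encodes CD45, and Cx3cr1 had 0 counts in all libraries and Itgam and Adgre1 at most 3. Csf1r, the receptor for macrophage growth factor, was present in both genotypes, with 245 to 385 counts per library, and did not pass the test (adjusted p = 0.0703). The part of these cell type differences in the levels of the 9 genes was not tested.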

How the data were processed

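Poly(A) RNA-seq of 6 libraries (3 Ts1Cje, 3 wild-type) was used. The deposited tables hold unnormalized counts for each Ensembl gene and, separately, TPM values computed by the authors. Per the submitters' processing notes, the tools were HISAT2 2.1.0, featureCounts 1.6.3, Trimmomatic 0.38 and FastQC 0.11.7, with mm10. Not given in the sources used here were strand settings, the treatment of multiply aligned reads and the lengths behind the TPM. Member coordinates equal those of GENCODE M21 for all 9 genes.

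In R 4.3.3, genes were kept by filterByExpr of edgeR 4.0.16 at a minimum count of 10 and a total of 15, then scaled with TMM and compared with the robust quasi-likelihood test without covariates. P-values were Benjamini-Hochberg adjusted over all 17315 genes tested, with a threshold of 0.05. SEs are approximate, obtained by dividing each log2 fold change's size by the root of its F statistic. CPM uses TMM-scaled library sizes. Ratios and shares were compared with 2-sided exact permutation tests over libraries. The script was checked on simulated counts. No 2 libraries of a group agreed within counting error (chi-square per degree of freedom 4.57 to 17.0).

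Members and lists were chosen with earlier results of these data known. The text names all members, genes among the up to 4 called ones of smallest adjusted p in each list, defining genes named whatever their values, and those of the 5 of most similar pattern. Some items chosen by these rules are not reported here. Alternatives were DESeq2 1.42.0, its size factors in edgeR, other filters, the lot number as a block, limma-trend (limma 3.58.1) on log2(TPM + 1) and log2(TPM + 0.1), and each library left out.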

Additional observations from a re-analysis of the deposited data

How the results depend on the processing

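The direction of all 9 genes held in the 13 alternative fits, and 6 (Krt7, Krt8, Krt18, Cldn6, Cldn7 and Marveld3) stayed past the threshold in each. Cldn3 ranged from 1.12 to 1.73 on leaving out 1 library and lost its call as given above. Cldn4 ranged from 0.27 to 0.93 on leaving out 1 library, passed with no filter on low counts (0.54, adjusted p = 0.00435) and with the replicate block (0.60, adjusted p = 0.0148), and did not pass otherwise except without wild-type replicate 1. The log2 ratio of type II to type I keratins, a difference of −0.05 between genotypes, was 0.039 with CPM in place of TPM and ran from −0.0924 to 0.0022 on leaving out 1 library, so it has no stable sign. On log2(TPM + 1) the changes of Krt7 (1.73) and Marveld3 (1.84), which are low, were smaller than in edgeR.

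Lot numbers are shared by the genotypes, but the labels tie no number to a shared source, and the main test did not pair the samples. The deviations of same-numbered libraries correlated at 0.219, 0.0589 and 0.202, and those of differently numbered ones at −0.198 to 0.0387. Whether the numbers mark pairs is not settled by these values. The replicate block raised the genes called from 7579 to 8326 and the members that rose from 7 to 8; each of the 3 Ts1Cje lots correlated best with the wild-type lot of its own number.

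Counts of some lists moved by over 1.5 times. Other keratins called higher, 0 above, were 1 with DESeq2, the replicate block or any of wild-type replicates 2 and 3 and Ts1Cje replicates 1 and 3 left out, and 2 with no filter or without wild-type replicate 1. Other claudins called higher, 1 above, ranged from 0 (at a mean log2 CPM of at least 1, where Cldn15 was not tested) to 3, and those lower, 1 above, from 0 to 2. Other intermediate filaments called higher fell from 5 to 2 with no filter and to 3 without wild-type replicate 2 or 3, and those lower from 4 to 2 without wild-type replicate 3 or Ts1Cje replicate 3. Adherens junction and epithelial surface genes called lower went from 3 to 1 without wild-type replicate 3 or Ts1Cje replicate 1 or 2. Trophoblast markers called higher went from 1 to 2 with limma-trend or without wild-type replicate 1, and surface ectoderm markers called lower from 2 to 1 at a mean log2 CPM of at least 1. Single calls appeared in place of 0 for epithelial regulators and endoderm markers (lower) and mesenchyme markers (higher). Snai1 also lost its call with no filter (adjusted p = 0.0762). Low counts limit Krt7, Cldn3 and Marveld3, which had 80 counts or fewer over the 3 wild-type libraries.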
